A study of Mus musculus with 9 samples.

Results

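The transcripts described here are those of 40 genes used as markers of leukocytes, read on arrays of luminal differentiated (LD) mammary cells and of mammary organoids. The genes came as a list, sorted into T cell, B and plasma cell, myeloid and pan-leukocyte genes, with a further pair, Cd83 and Ltb, kept as activation and cytokine genes. A gene was measured when the array held a probe set annotated to it alone, and where several did, the brightest on average over the 9 arrays stood for it. That left 39 of the 40 genes, of 18194 genes measured in the same way; Lck, a T cell kinase, had no probe set of its own. The measured genes were 10 T cell, 5 B and plasma cell, 10 myeloid and 12 pan-leukocyte genes, with Cd83 and Ltb.

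RNA was measured in 3 groups of 3 biological samples lettered A, B and C. The yMaSC organoids had grown from LD cells that received wild-type YAP from a doxycycline-inducible lentiviral vector, with doxycycline later withdrawn; they are thus descendants of infected cells expanded in culture. The MaSC organoids had grown from sorted mammary stem cells (MaSCs) that received no YAP. Both kinds of organoid were kept embedded in Matrigel under a medium with EGF, bFGF, heparin, noggin and R-spondin 1. The LD cells were sorted as EpCAM-high, CD49f-low and CD61-negative and used fresh, without culture. By the study's methods the glands came from young adult virgin C57BL/6J mice, and the suspensions were also stained with an APC-labelled lineage antibody cocktail, with the sort shown for lineage-negative cells. The difference between organoids and LD cells is thus also that between cultured and fresh cells, and these cannot be told apart here.

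The mammary gland is an epithelial tree in a fat pad that also holds resident macrophages, T cells, B cells, antibody-secreting plasma cells and mast cells, some of them lying within the epithelium itself. Each lineage carries its own surface receptors: the CD3 chains of the T cell receptor complex, the CD79 chains of the B cell receptor, Fc receptors and their adaptors on myeloid cells. Nearly all of them share others, above all CD45, the phosphatase encoded by Ptprc. Sorting for EpCAM is meant to leave leukocytes out, and a lineage cocktail of this kind usually holds antibodies to CD3e, to CD11b (encoded by Itgam), to the B220 form of CD45 and to granulocyte and red cell antigens.

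The values are log2 expression values on the scale of the robust multi-array average (RMA). The medians of the 9 arrays over all probe sets lay between 5.11 and 5.15 and the lower quartiles between 3.47 and 3.59. The epithelial markers Krt8 and Epcam were high in LD cells and organoids alike. Krt8 was 14.13 to 14.26 in LD cells and 13.14 to 13.48 in organoids, and Epcam 13.60 to 13.70 and 12.95 to 13.05. The basal epithelial list had 6 of its 7 genes higher in yMaSC organoids and 5 higher in MaSC organoids than in LD cells. The array of LD B stood apart from the other LD arrays. It was over 1 log2 above both of them for 254 genes, against 63 genes for LD A and 26 for LD C measured the same way. Of the 9 endothelial genes 8 were highest in LD B, and of the 8 fibroblast genes 7 were. Results that LD B decides are given with and without it, and the counts without LD B are given for each list.

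Most leukocyte genes were lower in organoids than in LD cells, and none passed as higher. Of the 39 genes, 25 were lower in yMaSC organoids and 26 in MaSC organoids at an adjusted p under 0.05 from limma, adjusted over all genes. Over all genes tested, 14.3% were lower and 21.6% higher in yMaSC organoids, and 15.2% were lower and 22.1% higher in MaSC organoids. The leukocyte genes had a median log2 difference of -1.01 in yMaSC organoids and -1.06 in MaSC organoids, beside medians of -0.01 and -0.02 over all genes. In bulk RNA, fewer cells of a type and less RNA per cell cannot be told apart.

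The same 25 genes were lower in both kinds of organoid, 1 more (Cd68) was lower in MaSC organoids alone, and 13 passed in neither comparison; the comparisons share the LD arrays. For 24 of the 39 genes the 3 LD arrays lay above all 6 organoid arrays, where 17.1% of all genes did so. For none did they lie below, where 23.3% of all genes did. A set of 9 leukocyte genes was among the 181 genes of 18194 with the lowest mean difference from LD cells, with Ptprc at rank 13, Cd83 at rank 27 and Jchain at rank 34.

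**Figure D1:**
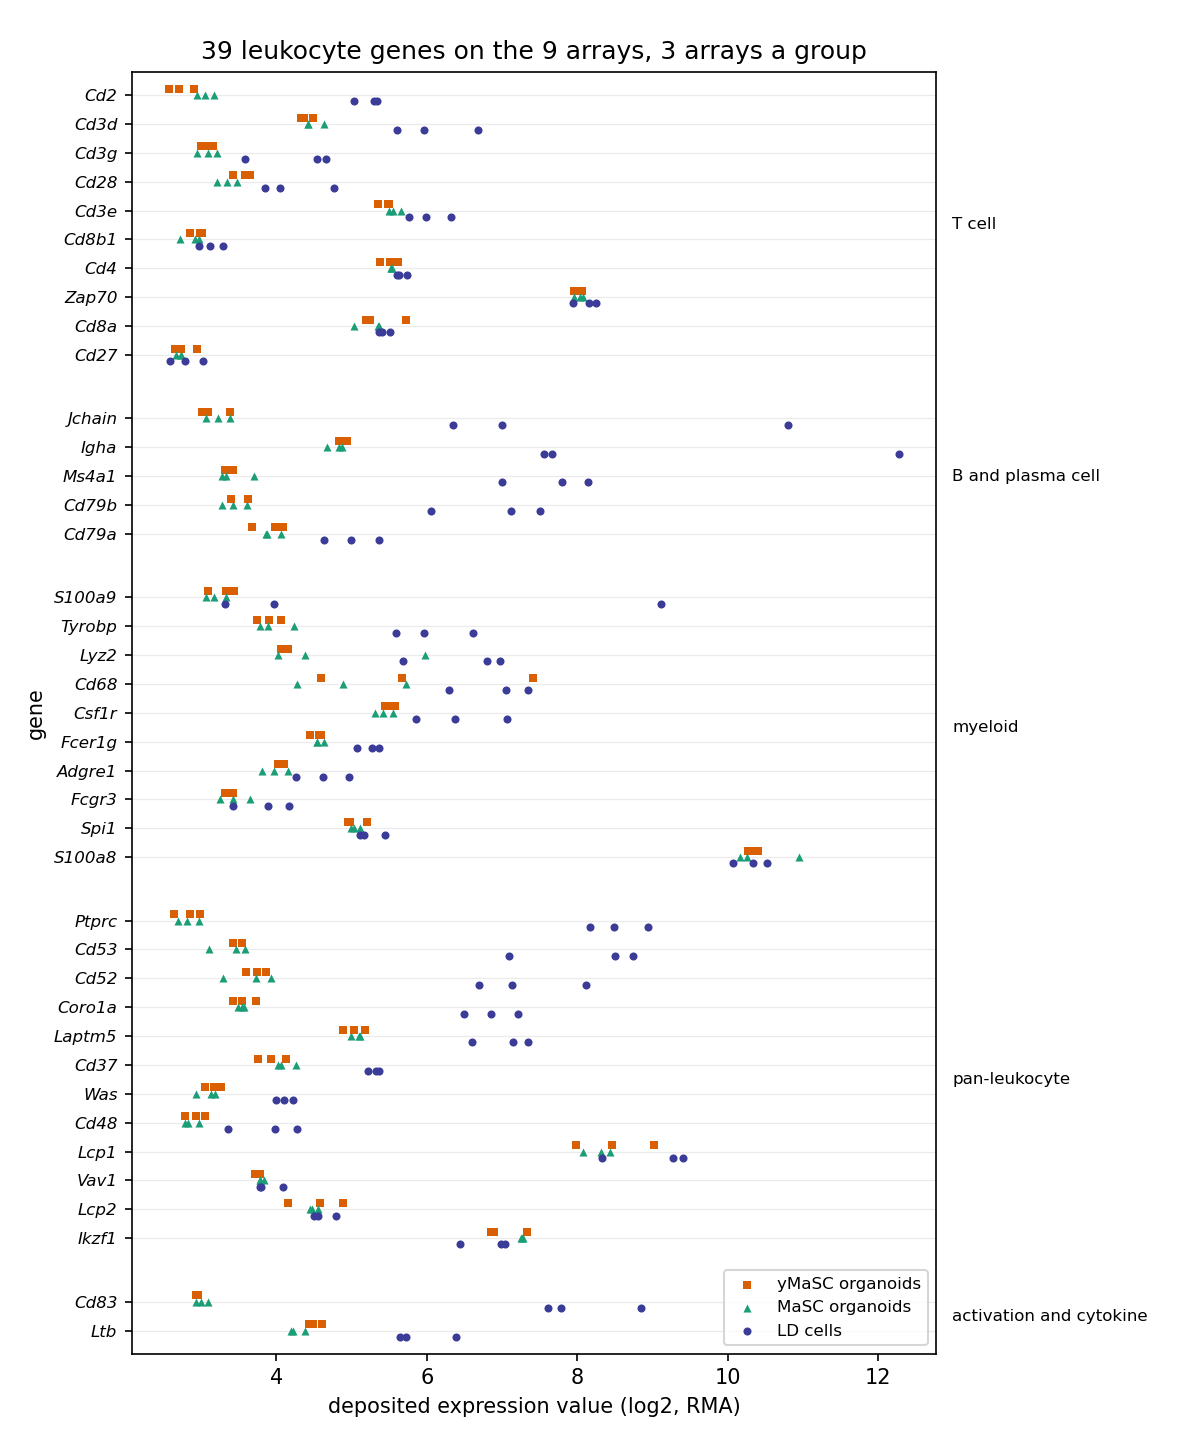
The deposited log2 expression value (horizontal axis) of each of the 39 leukocyte genes (rows, by class) on each of the 9 arrays. Squares are yMaSC organoids, triangles MaSC organoids and circles LD cells, 3 points each. Ptprc sits at 2.64 to 2.99 on the organoid arrays and at 8.17 to 8.94 on the LD arrays. Zap70, by the probe set used, sits between 7.94 and 8.25 on all 9 arrays, and its other probe sets read lower.

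Among the pan-leukocyte genes, 8 of 12 were lower in each kind of organoid, with median differences of -1.16 in yMaSC organoids and -1.11 in MaSC organoids. Ptprc encodes CD45, the receptor phosphatase found on all nucleated blood cells. It read 2.64, 2.86 and 2.99 in yMaSC organoids A, B and C, 2.82, 2.98 and 2.70 in MaSC organoids, and 8.94, 8.49 and 8.17 in LD cells. All 6 organoid arrays were below their lower quartile, and the LD arrays were all far above, well apart from the organoids. The log2 difference was -5.70 ± 0.19 (SE) for each kind of organoid (adjusted p = 1.21e-06 in yMaSC and 1.01e-06 in MaSC organoids). A second probe set of Ptprc was low on all arrays, at 2.79, 2.73 and 2.51 in yMaSC organoids, 3.02, 2.57 and 2.63 in MaSC organoids, and 3.91, 3.62 and 2.90 in LD cells, with differences of -0.80 and -0.74. With the mean of both probe sets the differences were -3.25 and -3.22 (adjusted p = 1.11e-05 and 1.04e-05), so the size depends on the probe set.

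Cd53, a tetraspanin of leukocyte membranes, had 3.42, 3.43 and 3.55 in yMaSC organoids, 3.46, 3.11 and 3.58 in MaSC organoids, and 8.50, 8.74 and 7.09 in LD cells. The organoid arrays formed a narrow band, and LD C was the lowest of the LD arrays. The differences were -4.64 ± 0.37 and -4.73 ± 0.37 (SE; adjusted p = 3.78e-05 in yMaSC and 3.08e-05 in MaSC organoids). A second probe set of Cd53, low on all arrays, differed by only -0.24 and -0.27, and the mean of both by -2.44 and -2.50 (adjusted p = 7.33e-05 and 5.96e-05). Cd52, a small glycoprotein abundant on lymphocytes, had 3.75, 3.60 and 3.86 in yMaSC organoids, 3.29, 3.93 and 3.73 in MaSC organoids, and 7.13, 8.11 and 6.70 in LD cells. Here LD B was the highest array, and again no organoid array came near the LD arrays. Its differences were -3.58 ± 0.33 and -3.66 ± 0.33 (SE; adjusted p = 7.06e-05 in yMaSC and 5.76e-05 in MaSC organoids).

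Coro1a, an actin-binding coronin of blood cells, had 3.73, 3.55 and 3.43 in yMaSC organoids, 3.55, 3.49 and 3.57 in MaSC organoids, and 7.21, 6.86 and 6.5 in LD cells. The LD arrays were closer together than for Cd52. The differences were -3.29 ± 0.17 and -3.32 ± 0.17 (SE; adjusted p = 5.80e-06 in yMaSC and 4.69e-06 in MaSC organoids). With the mean of its 3 probe sets Coro1a differed by less, at -2.21 and -2.26. The other 4 that passed, named after their values were seen, were Laptm5, a lysosomal membrane protein of blood cells (-1.99 in yMaSC and -1.96 in MaSC organoids), Cd37, a tetraspanin prominent on B cells (-1.36 and -1.19), Was, the Wiskott-Aldrich actin regulator (-0.94 and -1.03), and Cd48, a ligand of lymphocyte receptors (-0.95 and -1.01). For Laptm5 the probe set with the highest mean understated another: that one had 2.57, 2.49 and 2.45 in yMaSC organoids, 2.46, 2.82 and 2.69 in MaSC organoids, and 8.39, 8.04 and 7.60 in LD cells. With the mean of its probe sets Cd37 differed by less, at -0.87 and -0.77 (adjusted p = 7.85e-05 and 0.000132).

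The 4 pan-leukocyte genes that did not pass were Lcp1, Lcp2, Vav1 and Ikzf1, also named after their values were seen. Lcp1, the actin bundler plastin 2, was at 7.98, 8.46 and 9.02 in yMaSC organoids, 8.07, 8.32 and 8.44 in MaSC organoids, and 9.40, 8.33 and 9.27 in LD cells. It was read on the upper part of the scale in every sample, and LD B lay within the organoid range. Without LD B its differences were -0.85 and -1.06 (adjusted p = 0.0458 in yMaSC and 0.0188 in MaSC organoids). Ikzf1, the lymphoid transcription factor Ikaros, was 0.20 above LD cells in yMaSC organoids and 0.44 in MaSC organoids (adjusted p = 0.444 and 0.096). Its other probe set differed by -0.13 and -0.19, so the direction depended on the probe set. Lcp2, the adaptor SLP-76, and Vav1, an exchange factor downstream of lymphocyte receptors, differed by -0.07 and -0.13 in yMaSC organoids and by -0.12 and -0.09 in MaSC organoids, with overlapping arrays.

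The promoters in RefSeq (mouse build GRCm38.p6, 250 bases before to 50 bases after the start of each gene) were searched for GAGGAAGT, a sequence bound by PU.1, the blood cell transcription factor encoded by the myeloid gene Spi1. Both strands were searched, so the match can also read ACTTCCTC. A promoter was in the table for 26 of the 39 genes, and 4 of these 26 (15.4%) held the motif, against 997 of 27025 promoters in all (3.69%). By class these were 3 of 11 pan-leukocyte genes (Cd37, Cd53 and Vav1) and 1 of 6 myeloid genes (S100a8), with 0 of 6 T cell and 0 of 2 B and plasma cell genes. Cd37 and Cd53 were lower in organoids, and Vav1 and S100a8 did not pass. The promoters of the 2 that passed are shown 5′ to 3′ along the gene's strand, with the motif in capitals. That of Cd37 is chr7:45238790-45239089 on the minus strand, with its match beginning 25 bases before the start, and that of Cd53 is chr3:106790100-106790399 on the minus strand, with its match beginning at base 257 of the 300.
Cd37: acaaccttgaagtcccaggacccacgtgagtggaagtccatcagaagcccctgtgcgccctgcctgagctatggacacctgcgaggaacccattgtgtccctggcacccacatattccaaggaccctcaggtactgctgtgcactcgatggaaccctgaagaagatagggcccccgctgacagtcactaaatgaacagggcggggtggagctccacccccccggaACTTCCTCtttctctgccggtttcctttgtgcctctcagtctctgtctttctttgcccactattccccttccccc
Cd53: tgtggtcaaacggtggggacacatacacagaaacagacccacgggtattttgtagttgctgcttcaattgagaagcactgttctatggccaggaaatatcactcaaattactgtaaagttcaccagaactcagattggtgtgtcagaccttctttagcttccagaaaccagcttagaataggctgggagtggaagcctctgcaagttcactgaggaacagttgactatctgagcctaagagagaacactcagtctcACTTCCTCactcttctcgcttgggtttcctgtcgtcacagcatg
A match describes these letters and is not a measured binding site, and no protein binding was measured here.

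All 5 B and plasma cell genes were lower in both kinds of organoid, with median differences of -4.27 in yMaSC organoids and -4.21 in MaSC organoids, the lowest medians among the 4 main classes. Ms4a1 encodes CD20, a membrane protein of mature B cells. It had 3.32, 3.35 and 3.42 in yMaSC organoids, 3.71, 3.33 and 3.28 in MaSC organoids, and 7.80, 8.14 and 7.0 in LD cells. LD cells were high on every array. The differences were -4.28 ± 0.26 and -4.21 ± 0.26 (SE; adjusted p = 9.97e-06 in yMaSC and 9.87e-06 in MaSC organoids). With the mean of its 2 probe sets Ms4a1 differed by less, at -3.28 and -3.21.

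Cd79b, a signalling chain of the B cell receptor, had 3.40, 3.63 and 3.63 in yMaSC organoids, 3.61, 3.42 and 3.28 in MaSC organoids, and 7.12, 7.51 and 6.06 in LD cells. Its partner chain Cd79a had 3.68, 4.09 and 3.99 in yMaSC organoids, 4.07, 3.86 and 3.88 in MaSC organoids, and 5.37, 4.99 and 4.63 in LD cells. Neither chain overlapped between LD cells and organoids, and the gap was narrower for Cd79a. The differences were -3.34 ± 0.32 and -3.46 ± 0.32 for Cd79b and -1.08 ± 0.19 and -1.06 ± 0.19 for Cd79a (SE; adjusted p = 0.00234 in yMaSC and 0.00241 in MaSC organoids for Cd79a).

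Within this class the plasma cell genes varied most between LD arrays. Jchain encodes the joining chain that links IgA or IgM units for secretion. It had 3.39, 3.09 and 3.01 in yMaSC organoids, 3.38, 3.07 and 3.23 in MaSC organoids, and 6.35, 10.80 and 7.0 in LD cells. Igha, the heavy chain constant region of IgA, the class of antibody carried into milk, had 4.84, 4.90 and 4.94 in yMaSC organoids, 4.84, 4.68 and 4.87 in MaSC organoids, and 7.66, 12.28 and 7.56 in LD cells. LD B was far above LD A and LD C for both genes, yet LD A and LD C were themselves clear of every organoid array.

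With all arrays the differences of Jchain were -4.89 ± 0.95 and -4.82 ± 0.95 (SE; adjusted p = 0.00384 in yMaSC and 0.00392 in MaSC organoids), and those of Igha were -4.27 ± 1.06 and -4.37 ± 1.06 (SE; adjusted p = 0.0127 and 0.0111). Without LD B they were -3.51 and -3.45 for Jchain (adjusted p = 2.88e-05 and 2.78e-05) and -2.72 and -2.81 for Igha (adjusted p = 5.66e-06 and 4.92e-06). The differences were smaller in size and the spread was much narrower. All 3 probe sets of Igha read LD B highest, at 10.70 to 12.28; probe sets of immunoglobulin constant regions can share sequence with related genes, so they may not read IgA alone.

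Of the 10 myeloid genes, 5 were lower in yMaSC organoids and 6 in MaSC organoids, with median differences of -0.81 and -0.83. Tyrobp encodes DAP12, the adaptor of activating receptors on myeloid and NK cells. It had 3.90, 3.75 and 4.06 in yMaSC organoids, 3.78, 3.89 and 4.23 in MaSC organoids, and 6.61, 5.96 and 5.59 in LD cells. The groups were separate, with LD A the highest. The differences were -2.15 ± 0.24 and -2.09 ± 0.24 (SE; adjusted p = 0.000214 in yMaSC and 0.000237 in MaSC organoids).

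Lyz2, lysozyme of macrophages and granulocytes, had 4.07, 4.16 and 4.11 in yMaSC organoids, 4.38, 4.02 and 5.98 in MaSC organoids, and 6.97, 6.80 and 5.68 in LD cells. MaSC organoid C was above LD C, so these groups overlapped. The differences were -2.37 ± 0.50 in yMaSC organoids and -1.69 ± 0.50 in MaSC organoids (SE; adjusted p = 0.00574 and 0.0269). The call in MaSC organoids was lost without MaSC organoid A, MaSC organoid B, LD A or LD B, at adjusted p between 0.078 and 0.094.

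Cd68, a lysosomal glycoprotein of macrophages, had 4.59, 5.67 and 7.41 in yMaSC organoids, 4.89, 5.73 and 4.28 in MaSC organoids, and 7.05, 7.35 and 6.30 in LD cells. The organoids spread over 3.13 log2, and yMaSC organoid C was above all LD arrays. The differences were -1.01 ± 0.67 in yMaSC organoids and -1.93 ± 0.67 in MaSC organoids (SE; adjusted p = 0.28 and 0.0494). Without yMaSC organoid C the difference of yMaSC organoids was -1.77 (adjusted p = 0.0265). The call in MaSC organoids was lost when any of 6 arrays was left out (yMaSC organoid B, MaSC organoids A and C, and LD A, B and C), at adjusted p between 0.0582 and 0.141, and with the replicate letter as a block (adjusted p 0.0653).

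The defining receptors of macrophages differed less. Csf1r, the receptor for macrophage colony stimulating factor, had 5.48, 5.58 and 5.44 in yMaSC organoids, 5.31, 5.42 and 5.55 in MaSC organoids, and 7.06, 6.37 and 5.86 in LD cells. Adgre1, which encodes an adhesion-type receptor used to mark mouse macrophages, had 4.09, 4.10 and 4.02 in yMaSC organoids, 3.81, 3.97 and 4.16 in MaSC organoids, and 4.97, 4.62 and 4.26 in LD cells. In both genes the LD arrays lay above the organoids, LD A the most, and LD C came close to the highest organoid array.

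The differences of Csf1r were -0.93 ± 0.26 and -1.0 ± 0.26 (SE; adjusted p = 0.0199 in yMaSC and 0.0137 in MaSC organoids). The call in yMaSC organoids was lost without yMaSC organoid A (adjusted p 0.0566) or yMaSC organoid C (0.0504), and that in MaSC organoids without MaSC organoid A (adjusted p 0.05 after rounding). With the mean of its 3 probe sets the differences of Csf1r were -0.59 and -0.69 (adjusted p = 0.0049 and 0.00222). The differences of Adgre1 were -0.55 ± 0.17 and -0.64 ± 0.17 (SE; adjusted p = 0.038 and 0.0194). The Adgre1 call in yMaSC organoids was lost without any yMaSC organoid, MaSC organoid B, LD A or LD B (adjusted p 0.058 to 0.0948) and with the replicate letter as a block (0.0585), and that in MaSC organoids without MaSC organoid A (0.075) or MaSC organoid B (0.0563). Itgam, the CD11b chain of myeloid integrins and no member of the list, had 2.88, 2.98 and 2.98 in yMaSC organoids, 2.81, 2.77 and 3.10 in MaSC organoids, and 3.05, 3.42 and 3.22 in LD cells, all low on the scale. Its differences were -0.28 and -0.34 (adjusted p = 0.126 and 0.0733), and that of MaSC organoids passed without MaSC organoid C (adjusted p 0.0353) or LD A (0.0408).

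The remaining myeloid genes are named after their values were seen. Fcer1g, the shared signalling chain of Fc receptors, was lower by a small and steady margin (-0.69 ± 0.10 in yMaSC and -0.66 ± 0.10 in MaSC organoids, SE), with no overlap. S100a9, a calcium-binding protein of neutrophils, had 3.09, 3.44 and 3.33 in yMaSC organoids, 3.07, 3.33 and 3.18 in MaSC organoids, and 3.97, 9.11 and 3.32 in LD cells. It was high in LD B alone, and LD C fell within the organoid range. Its differences of -2.18 and -2.27 did not pass (adjusted p = 0.216 in yMaSC and 0.193 in MaSC organoids) and were -0.36 and -0.45 without LD B. S100a8, the partner of S100a9 in calprotectin, was between 10.07 and 10.95 on all 9 arrays, with LD B the lowest. Fcgr3, a low-affinity Fc receptor, and Spi1 overlapped between groups and did not pass.

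Of the 10 T cell genes, 5 were lower in each kind of organoid, with median differences of -0.38 in yMaSC organoids and -0.36 in MaSC organoids. Cd2, an adhesion receptor of lymphocytes, had 2.71, 2.57 and 2.91 in yMaSC organoids, 2.95, 3.18 and 3.05 in MaSC organoids, and 5.03, 5.34 and 5.30 in LD cells. The LD arrays were within 0.31 of each other, the tightest among the T cell genes that passed. The differences were -2.49 ± 0.13 and -2.16 ± 0.13 (SE; adjusted p = 5.85e-06 in yMaSC and 9.06e-06 in MaSC organoids).

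The CD3 chains transmit the signal of the T cell receptor. Cd3d had 4.33, 4.49 and 4.37 in yMaSC organoids, 4.42, 4.42 and 4.64 in MaSC organoids, and 5.61, 6.68 and 5.96 in LD cells. Cd3g had 3.05, 3.16 and 3.0 in yMaSC organoids, 3.10, 2.95 and 3.21 in MaSC organoids, and 3.58, 4.54 and 4.66 in LD cells. LD A was the lowest LD array for each chain. The differences were -1.69 ± 0.24 and -1.59 ± 0.24 for Cd3d and -1.19 ± 0.25 and -1.17 ± 0.25 for Cd3g (SE; adjusted p = 0.0059 in yMaSC and 0.00604 in MaSC organoids for Cd3g).

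Cd3e, the CD3 chain that lineage cocktails usually target, had 5.50, 5.35 and 5.48 in yMaSC organoids, 5.55, 5.66 and 5.50 in MaSC organoids, and 5.76, 6.32 and 5.99 in LD cells. LD A was only just above the organoids. The differences were -0.58 ± 0.14 and -0.45 ± 0.14 (SE; adjusted p = 0.0121 in yMaSC and 0.0346 in MaSC organoids). Without LD B they were -0.43 and -0.30 (adjusted p = 0.0196 and 0.0702). The call in MaSC organoids was also lost without LD C, yMaSC organoid A or any MaSC organoid, with adjusted p from 0.0509 to 0.095 over the 6 arrays.

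Cd28, the costimulatory receptor of T cells, had 3.65, 3.43 and 3.58 in yMaSC organoids, 3.48, 3.22 and 3.34 in MaSC organoids, and 4.05, 3.85 and 4.77 in LD cells. LD C was the highest array. The differences were -0.67 ± 0.22 and -0.88 ± 0.22 (SE; adjusted p = 0.0394 in yMaSC and 0.0119 in MaSC organoids), and the call in yMaSC organoids was lost without LD A or any single organoid array, at adjusted p between 0.0519 and 0.119. With the mean of its 2 probe sets the differences of Cd28 were -1.13 and -1.36 (adjusted p = 0.00446 and 0.0017). The other 5 T cell genes did not pass: Cd4, Cd8a and Cd8b1, the coreceptors of helper and cytotoxic T cells, Cd27, a receptor of the TNF family, and Zap70, the kinase of the T cell receptor. Their differences lay between -0.26 and -0.02, and each overlapped between LD cells and organoids. Zap70 was at 7.94 to 8.25 on all 9 arrays by the probe set used. Its other probe sets read 4.16 to 4.80 and 3.89 to 4.45, below the array medians, so its level depends on the probe set.

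Both activation and cytokine genes were lower in organoids. Cd83, a surface protein of mature dendritic cells and activated B cells, had 2.96, 2.96 and 2.94 in yMaSC organoids, 2.93, 3.0 and 3.09 in MaSC organoids, and 8.85, 7.79 and 7.61 in LD cells. The organoids were within 0.16 of each other, and LD cells were far above. The differences were -5.13 ± 0.28 and -5.08 ± 0.28 (SE; adjusted p = 6.01e-06 in yMaSC and 6.10e-06 in MaSC organoids).

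Ltb, lymphotoxin beta, a membrane cytokine of lymphocytes, had 4.43, 4.49 and 4.61 in yMaSC organoids, 4.20, 4.22 and 4.38 in MaSC organoids, and 5.72, 6.39 and 5.65 in LD cells. LD B was the highest, and no arrays overlapped. The differences were -1.41 ± 0.19 and -1.65 ± 0.19 (SE; adjusted p = 0.000492 in yMaSC and 0.00019 in MaSC organoids).

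**Figure D2:**
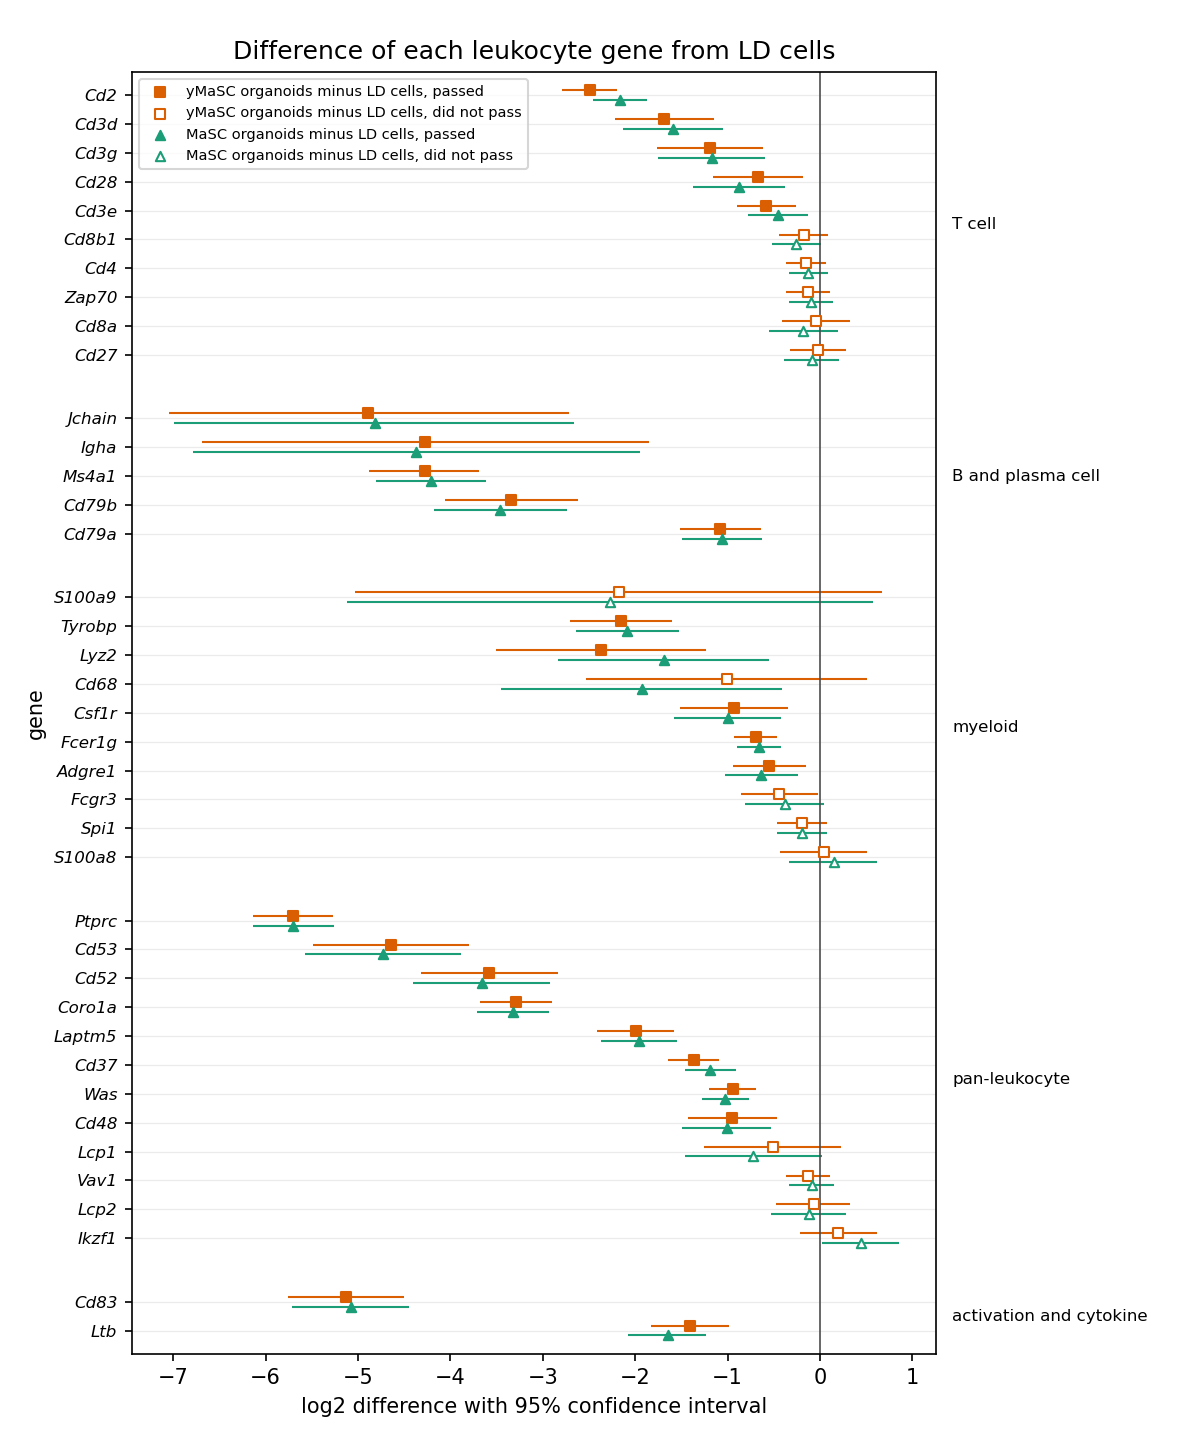
The log2 difference of each leukocyte gene from LD cells (horizontal axis) with its 95% confidence interval, for yMaSC organoids (squares) and MaSC organoids (triangles). Filled symbols passed at an adjusted p under 0.05. The 5 B and plasma cell genes all lie left of 0 and passed, from -1.06 for Cd79a to -4.89 for Jchain, and 5 of the 10 T cell genes lie near 0.

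Side by side, the share of genes lower in yMaSC organoids was 100% for B and plasma cell genes, 66.7% for pan-leukocyte genes, 50% for myeloid genes and 50% for T cell genes, and in MaSC organoids it was 100%, 66.7%, 60.0% and 50%. Whether these shares differ between classes was not tested, since genes of a class are not replicates and probe sets differ in how they respond. The signal was not equal within a class either. Of 27 genes with all organoid arrays below the array median, 13 had all 3 LD arrays above it. These included Ptprc, Ms4a1, Cd83 and Tyrobp. A further 10 were below the median on all 9 arrays, among them Cd3g, Cd28, Cd8b1, Cd27 and Adgre1. The shares of all genes with these patterns are not given here.

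The LD array with the highest value was not the same for all leukocyte genes. LD A was the highest LD array for 16 of the 39 genes, LD B for 16 and LD C for 7, and LD C was the lowest for 23. By class, LD B was highest for 4 of 5 B and plasma cell genes and LD A for 6 of 10 myeloid genes and 7 of 12 pan-leukocyte genes. LD C was highest for 5 of 10 T cell genes, and lowest for 9 of 10 myeloid genes. These counts take in genes that did not pass and whose LD arrays lay close together. Among the T cell genes highest in LD C were Cd8a, Cd27 and Zap70, with LD ranges of 0.15, 0.44 and 0.31 log2. The share of all genes highest or lowest in each LD array is not given here.

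In linear units the sum over the B and plasma cell genes was 69.3 to 81.1 on the organoid arrays, and 687 in LD A, 7250 in LD B and 536 in LD C. Igha and Jchain made up 6760 of the sum in LD B, and without these 2 genes it was 33.4 to 42.1 in organoids, and 403, 496 and 219 in LD A, B and C. The sum over the pan-leukocyte genes was 503 to 794 in organoids, and 2210, 1860 and 1570 in LD A, B and C. On the organoid arrays, LD A and LD C, Lcp1, which did not pass, was the largest term of that sum. Among the LD arrays it was lowest in LD B, at 8.33 in log2, against 9.40 in LD A and 9.27 in LD C. The pan-leukocyte sum without Lcp1 is not given here. The sum over the T cell genes was 434 to 467 in organoids, and 520, 653 and 633 in LD cells. Its largest term on all 9 arrays was Zap70, at 7.94 to 8.25 in log2, which did not pass either and whose other probe sets read lower. The sum over the myeloid genes overlapped between groups. It was 1540, 1460 and 1670 in yMaSC organoids, 1340, 1440 and 2230 in MaSC organoids, and 2100, 2170 and 1630 in LD cells. MaSC organoid C was above every LD array. The largest term of the myeloid sum on every array was S100a8, at 10.07 to 10.95 in log2, which did not pass. S100a8 was itself highest in MaSC organoid C, so the place of that array in the sum follows this gene. The myeloid sum without S100a8 is not given here. LD B thus stood out in Igha and Jchain but not in the pan-leukocyte sum. In the same array the summed endothelial genes reached 626, against 317 in LD A and 320 in LD C, and the fibroblast genes 5740, against 1480 and 2230. What part these other cells have in the values of LD B was not tested.

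**Figure D3:**
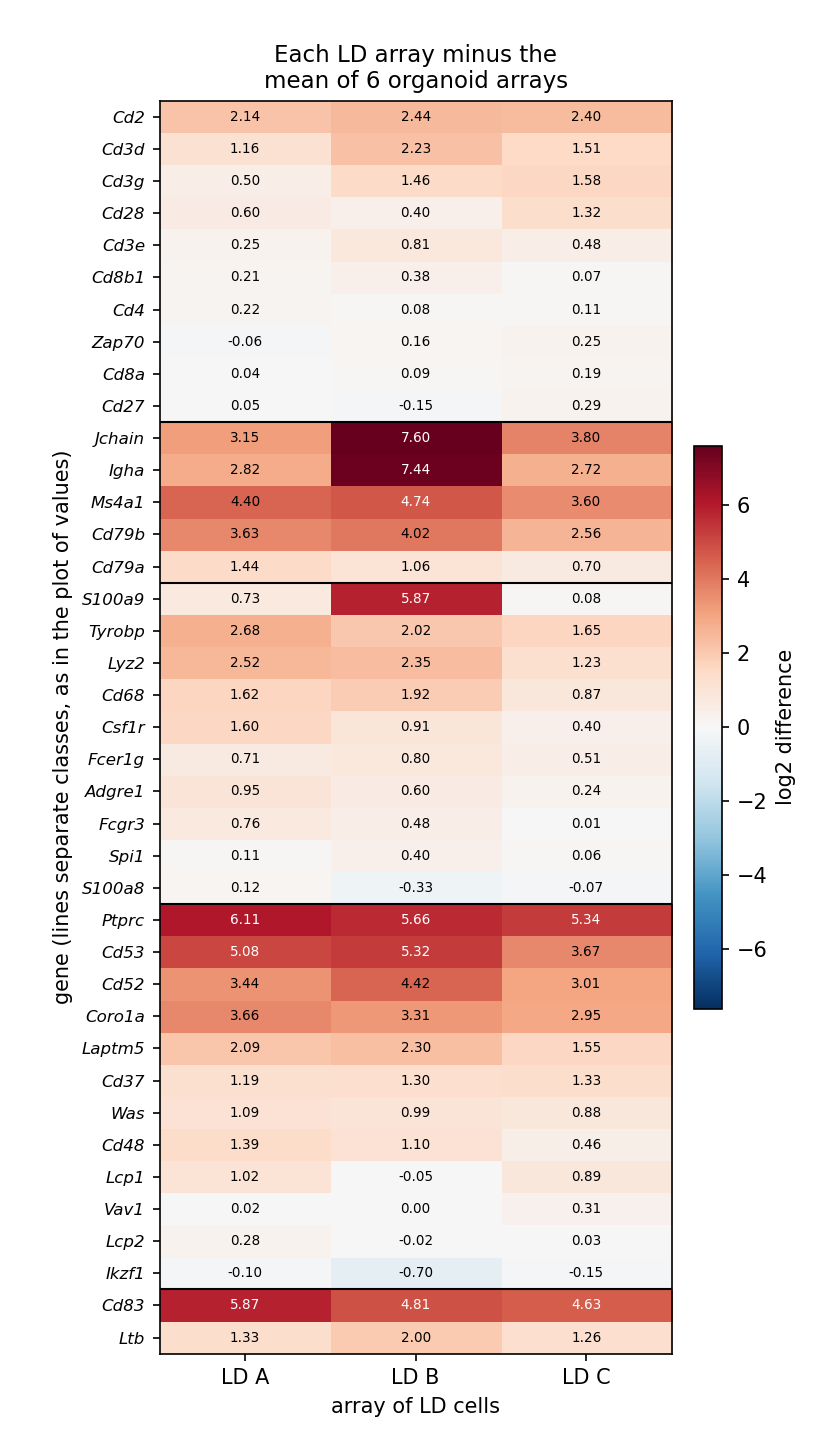
The log2 value of each LD array minus the mean of the 6 organoid arrays (colour and printed number) for the 39 leukocyte genes, with classes separated by lines. Jchain, Igha and S100a9 reach 7.60, 7.44 and 5.87 in LD B, while Ptprc is at 6.11, 5.66 and 5.34 in LD A, B and C.

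Without LD B, 25 of the 39 genes were lower in yMaSC organoids and 24 in MaSC organoids, beside 14.6% and 15.1% of all genes in that fit. All 5 B and plasma cell genes stayed lower in both comparisons. The T cell count was 5 in yMaSC organoids and 4 in MaSC organoids, without Cd3e (adjusted p = 0.0702). The myeloid count became 4 in each kind of organoid, without Adgre1 in yMaSC organoids (adjusted p = 0.0763) and without Cd68 and Lyz2 in MaSC organoids (adjusted p = 0.132 and 0.078). The pan-leukocyte count became 9 in each, with Lcp1. Over the 39 genes the median difference was -0.94 in yMaSC organoids and -1.06 in MaSC organoids. For 26 genes both remaining LD arrays lay above all organoid arrays. The share of all genes that did so without LD B is not given here, and fewer LD arrays clear the organoids more easily. Of the genes that passed both with and without LD B, 24 in yMaSC organoids and 23 in MaSC organoids, Igha alone had a difference that moved by over 1.5 times. That of Ptprc was -5.72 in each kind of organoid without LD B, that of Cd53 -4.33 and -4.41, that of Ms4a1 -4.04 and -3.96, that of Tyrobp -2.20 and -2.13, and that of Cd83 -5.28 and -5.22.

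Between the 2 kinds of organoid, no leukocyte gene passed, as no gene of the 18194 did (0%). At an unadjusted p under 0.05 from limma there was 1 leukocyte gene, Cd2, and 104 genes in all. The log2 difference of Cd2 was -0.33 in yMaSC organoids against MaSC organoids, with an adjusted p of 1. In 36 of the 39 genes the 2 means were within 0.25 log2 of each other. The largest gaps were those of Cd68 at 0.92 and Lyz2 at -0.68, with adjusted p of 1, and both rest on the organoids lettered C described above. Ptprc differed by 0.00, with a 95% interval from -0.44 to 0.43. This fit shares its spread over all arrays, LD arrays included, and does not pair the letters. These p-values and the interval thus do not measure the spread between organoids alone. With the letters as pairs in organoids alone, 0 of the 39 genes passed.

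Other genes of the same lineages, from lists drawn up with earlier results of these data known, are given by their counts. Beside them, 14.3% of all genes were lower in yMaSC organoids and 15.2% in MaSC organoids. Of 16 other B and plasma cell genes, 12 were lower in yMaSC organoids and 11 in MaSC organoids. Cxcr5, the receptor that guides B cells into follicles, was at 2.70 to 3.35 in yMaSC organoids, 2.85 to 3.26 in MaSC organoids and 5.37 to 6.32 in LD cells, and Bank1, a scaffold of B cell receptor signalling, was at 2.91 to 3.23, 3.14 to 3.25 and 5.45 to 6.48 in the same groups. Both were separate between LD cells and organoids. Of 26 other pan-leukocyte genes, 15 were lower in yMaSC organoids and 18 in MaSC organoids, with Sla, an adaptor that damps receptor signalling, at -1.87 and -1.88.

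Of 24 other T cell genes, 7 were lower in yMaSC organoids and 9 in MaSC organoids, and 2 were higher in each. The lower ones included Ccr7, the homing receptor of naive lymphocytes and mature dendritic cells, at 3.42, 3.52 and 3.75 in yMaSC organoids, 3.42, 3.24 and 3.07 in MaSC organoids, and 8.17, 7.56 and 7.15 in LD cells. The higher ones were Gata3 (1.25 in yMaSC and 1.52 in MaSC organoids) and Bcl11b (2.28 and 2.30), transcription factors that mammary epithelium also uses. Of 13 NK and cytotoxic genes, 3 were lower in yMaSC organoids (23.1%) and 2 in MaSC organoids (15.4%), the latter near the 15.2% of all genes. The median differences of this list were -0.22 and -0.21. Its largest difference was that of Ccl5, a chemokine of T and NK cells, at 4.34 to 5.36 in yMaSC organoids, 4.78 to 5.34 in MaSC organoids and 8.41 to 9.96 in LD cells.

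Of 20 other macrophage and monocyte genes, 8 were lower in yMaSC organoids and 9 in MaSC organoids, and Cd163, a scavenger receptor, was higher in both (1.38 and 1.26); Gata3, Cd163 and Ngp are named after their values were seen. Ctss, the lysosomal protease cathepsin S of antigen-presenting cells, had 2.51, 2.51 and 2.83 in yMaSC organoids, 2.92, 2.62 and 3.0 in MaSC organoids, and 8.33, 8.29 and 5.78 in LD cells, with LD C well below the other LD arrays. Cybb, a subunit of the phagocyte oxidase, was likewise lowest in LD C, at 7.07, 6.79 and 5.36 in LD cells. Of 9 dendritic cell genes, 4 were lower in yMaSC organoids and 5 in MaSC organoids, led by the transcription factor Irf8 (-1.46 and -1.52).

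Of 13 granulocyte and mast cell genes, 3 were lower in yMaSC organoids and 4 in MaSC organoids. Cpa3, the carboxypeptidase of mast cells, had 3.42, 3.60 and 3.84 in yMaSC organoids, 3.61, 3.49 and 3.35 in MaSC organoids, and 6.69, 6.07 and 6.26 in LD cells. It was high in all LD arrays, unlike the neutrophil granule gene Ngp, which like S100a9 was high in LD B alone, at 6.87, with 4.28 in LD A and 4.14 in LD C.

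Lists of other cell types were read beside these. Among 9 endothelial genes, 1 was lower in each kind of organoid: Vwf, the clotting factor of endothelium and platelets, at 3.08 to 3.19 in yMaSC organoids, 2.93 to 3.19 in MaSC organoids and 7.05 to 7.25 in LD cells. The endothelial cadherin Cdh5 was 6.32 in LD B, with 3.35 in LD A and 3.27 in LD C. Among 8 fibroblast genes, 4 were lower in each kind of organoid and Pdgfra was higher; Col3a1, a fibrillar collagen, was at 2.56 to 2.86 in yMaSC organoids, 2.68 to 2.92 in MaSC organoids, and 7.01, 9.55 and 6.0 in LD A, B and C. Of 13 luminal epithelial genes 7 were lower in each kind of organoid, and Gata3, which is also on this list, was higher in each. Of 19 genes of other organs, 3 were lower in yMaSC organoids and 2 in MaSC organoids, with a median difference of -0.12 in each.

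These other lists gave the following counts without LD B. In yMaSC organoids, 11 B and plasma cell, 15 pan-leukocyte, 8 T cell, 2 NK and cytotoxic, 8 macrophage and monocyte, 5 dendritic cell and 5 granulocyte and mast cell genes were lower, and in MaSC organoids the counts were 11, 16, 9, 2, 9, 5 and 5 in the same order. The granulocyte and mast cell count in yMaSC organoids was the one among these that moved by over 1.5 times, being 3 with LD B. Of the remaining lists, 1 endothelial, 3 fibroblast, 6 luminal epithelial and 1 of the genes of other organs were lower in yMaSC organoids, and 2, 4, 6 and 2 in MaSC organoids.

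**Figure D4:**
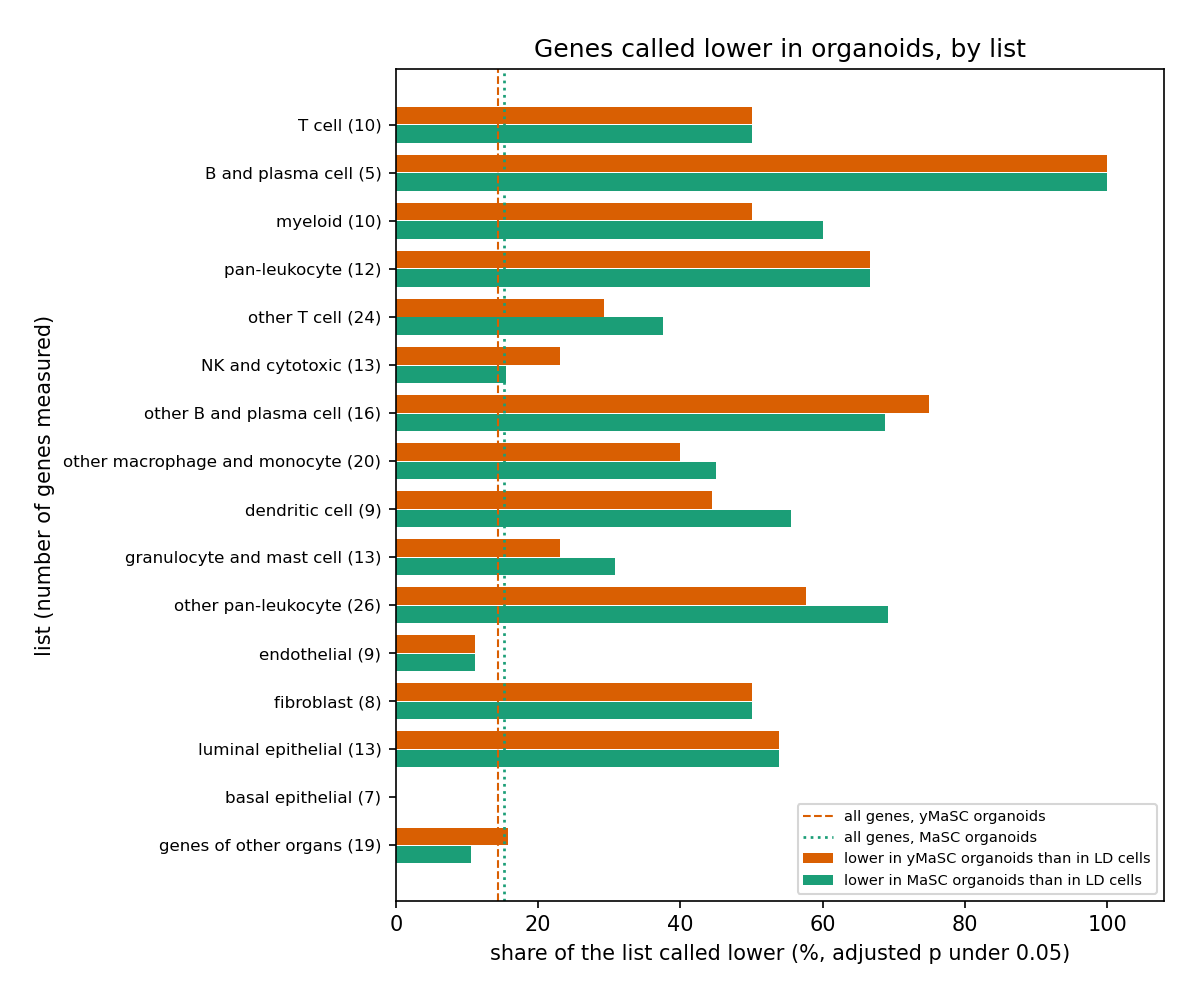
The share of each list (rows, with the number of genes measured) called lower in yMaSC organoids and in MaSC organoids than in LD cells, in percent, with dashed and dotted lines at the shares of all genes (14.3% and 15.2%). B and plasma cell genes reach 100% and genes of other organs 15.8% and 10.5%.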

How the data were processed

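RNA of yMaSC organoids, MaSC organoids and LD cells (3 arrays each) was labelled as biotinylated cRNA and measured on Affymetrix mouse arrays. The authors computed the deposited log2 values by RMA (background correction, quantile normalization and probe summary), in a version not stated in the sources used here, and gave no detection calls. The table held 0 columns of other samples. Of 45101 probe sets, 34958 were annotated to 1 gene, 932 to several and 9211 to none. Of the 39 genes described, 16 had more than 1 probe set (65 in all, of which 26 were not used). In each of those 26 both organoid means were under the LD mean.

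A linear model of the 3 groups was fitted to 18194 genes over all arrays with R 4.3.3 and limma 3.58.1, with an empirical Bayes spread, no filter on low values and Benjamini-Hochberg adjustment over all genes. Which test the authors ran on these arrays was not stated there. The fit was tested on simulated data. The samples are labelled as biological replicas, and the number of arrays limits the precision. The members and all lists were chosen with earlier results of these data known. Values are printed for up to 4 genes a class with the largest difference among those that passed and for the defining genes Ptprc, Cd3e, Cd79a, Ms4a1, Csf1r, Adgre1 and Itgam, and in the other lists for up to 3 genes with the largest difference; genes outside this rule are said to be named after their values were seen. Organoids of the same letter deviated together (r = 0.607, 0.611 and 0.649 for A, B and C), so the letters were taken to pair them; LD cells and organoids did not (r from -0.0462 to 0.0453). Alternatives are given in the closing section. A search of proteins for signalling motifs was not run. Promoters are from RefSeq (GRCm38.p6). Figures were drawn with Python 3.11.15 and matplotlib 3.10.9.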

Additional observations from a re-analysis of the deposited data

How the results depend on the processing

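The counts of genes lower in organoids kept within 1.5 times of 25 and 26 under all alternatives but the restriction to genes above the median of mean values, where 5 of the 39 genes were tested and 1 was lower in yMaSC organoids and 1 in MaSC organoids; fewer genes were tested there by construction. With each array left out, 22 to 26 genes were lower in yMaSC organoids and 21 to 26 in MaSC organoids. In the same fits 24 to 28 genes had all LD arrays above all organoid arrays. With fewer arrays such a gap is easier to reach, and the share of all genes without overlap is given for all arrays only. None of the 39 genes passed as higher and none passed between the organoids. With the replicate block (letters as pairs) the counts were 24, 25 and 0, and 0 with the replicate block in organoids alone. A common median over genes moves the differences of all genes by -0.26 in yMaSC and -0.25 in MaSC organoids. It gave 31 and 35 genes, and under that shift more genes of any kind can pass as lower. A 2-fold limit gave 18 and 22. Shares of all genes called are given above for the main fit and the fit without LD B, and not for the other alternatives. Without both organoids lettered C, an alternative chosen after seeing the data, 23 and 25 passed. Over the named genes, 691 single-gene results under alternatives kept their call, 50 lost it and 9 gained it, and none changed direction. The calls that changed were those of Cd28, Lyz2, Cd68, Csf1r, Cd3e, Adgre1 and Itgam. Beside the arrays left out, the calls lost were those of Adgre1 in yMaSC organoids (replicate block, cyclic loess, array weights, only the groups compared), Cd68 in MaSC organoids (replicate block, mean of all probe sets, trended and robust prior, array weights), Cd28 in yMaSC organoids (cyclic loess, only the groups compared) and Lyz2 and Cd3e in MaSC organoids (only the groups compared); without both organoids lettered C, Cd28, Csf1r and Adgre1 in yMaSC organoids and Cd3e in MaSC organoids were also lost. With 3 arrays a group and most organoid values near the low end of the scale, small differences of weakly read genes such as Cd8b1 or Cd27 were not detectable here.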

Other observations

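The genes higher in organoids among the leukocyte lists, Gata3, Bcl11b, Cd163 and, in the fibroblast list, Pdgfra, were at 10.51 to 10.70, 6.07 to 7.55, 5.0 to 5.51 and 7.11 to 7.39 in yMaSC organoids. In MaSC organoids they were at 10.82 to 11.03, 6.11 to 7.81, 4.89 to 5.52 and 7.58 to 7.72, and in LD cells at 9.11 to 9.63, 3.76 to 5.13, 3.87 to 4.03 and 5.08 to 5.18. None of these ranges overlapped between LD cells and organoids. Ctla4, an inhibitory receptor of regulatory T cells, was at 3.32 to 3.35 in yMaSC organoids, 3.10 to 3.48 in MaSC organoids, and 4.74, 4.83 and 5.29 in LD cells, with LD C the highest as for Cd28. Mzb1, a chaperone of antibody-secreting cells, was at 4.85 to 4.96 in yMaSC organoids, 4.49 to 4.96 in MaSC organoids, and 6.66, 8.04 and 6.35 in LD cells, with LD B the highest as for Jchain. Cd14, a lipopolysaccharide coreceptor of monocytes that mammary epithelium also expresses, was between 12.34 and 13.13 on all 9 arrays. These genes were chosen after their values were seen.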
